A study of Mus musculus with 4 samples.

Results

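Amino acid transporters of the cell surface were followed in the immortalised mouse microglial line N9 under nimodipine, a calcium channel blocker of the dihydropyridine class that acts on L-type channels. A list of 10 transporter genes was taken by symbol, and each gene was represented by its probe set with the highest mean. Of the 10 genes, 9 had a probe set annotated to that gene alone, out of 22180 genes measured. They were Slc7a11, Slc7a5, Slc3a2, Slc7a1, Slc7a3, Slc1a5, Slc1a4, Slc38a1 and Slc38a2. Slc6a9, which encodes a glycine transporter, had only 1 probe set, shared with another gene, and no value is given for it. The series held 4 Affymetrix arrays of total RNA, with 2 from cells given vehicle, 1 from cells at 10 µM nimodipine and 1 from cells at 20 µM. The labels speak of a respective vehicle but leave unsaid which vehicle array goes with which dose, so both were used for both doses. They also leave unsaid how long the cells were exposed or whether the arrays came from separate cultures. All values are RMA expression on the log2 scale, and the median over all probe sets and arrays, called the overall median below, was 5.04.

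Cells take up amino acids through several transporter families that differ in what they carry. Slc3a2 encodes the heavy chain 4F2hc (CD98), which forms disulphide-linked pairs with light chains of the Slc7 family. With xCT, the product of Slc7a11, it imports cystine in exchange for glutamate, and microglia are known to release glutamate by this route. With LAT1, the product of Slc7a5, it carries large neutral amino acids. Several of these genes are known targets of ATF4, the transcription factor that is made when cells are short of amino acids or under endoplasmic reticulum stress. ATF4 binds with C/EBP proteins to a composite element, and xCT is also a known target of NRF2, which acts through the antioxidant response element.

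The core letters of these elements, TGATGNAA for C/EBP-ATF and TGACNNNGC for the antioxidant element, were searched on both strands of RefSeq promoters (GRCm38.p6), windows of 300 bases around each gene's start. Promoters of 5 of the 9 measured genes were matched, those of Slc7a11, Slc3a2, Slc7a1, Slc1a4 and Slc38a2. Slc7a5, Slc7a3, Slc1a5 and Slc38a1 were not searched here. The stretches shown are those of the 2 genes with a C/EBP-ATF core and, beside them, of Slc38a2, whose 10 µM value lay below both vehicle arrays. Each runs 5′ to 3′ toward the start site, with matched letters in capitals.
Slc7a11: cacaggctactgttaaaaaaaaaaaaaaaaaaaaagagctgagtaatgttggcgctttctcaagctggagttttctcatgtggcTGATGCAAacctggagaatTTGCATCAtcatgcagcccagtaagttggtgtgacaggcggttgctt
Slc1a4: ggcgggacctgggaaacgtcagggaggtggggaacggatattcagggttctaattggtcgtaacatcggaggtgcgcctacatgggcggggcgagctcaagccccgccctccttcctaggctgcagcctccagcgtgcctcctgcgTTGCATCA
Slc38a2: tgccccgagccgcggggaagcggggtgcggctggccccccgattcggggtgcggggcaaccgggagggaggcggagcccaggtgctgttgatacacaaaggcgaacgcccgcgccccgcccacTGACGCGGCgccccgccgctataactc

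The Slc7a11 stretch lies at chr3:50443614-50443763 on the minus strand and holds the C/EBP-ATF core at 2 places, once on each strand. The first match begins 66 bases before the start site, and the second, read on the other strand, lies from 47 to 40 bases before it. The Slc1a4 stretch, at chr11:20332710-20332863 on the minus strand, ends in 1 such core that spans the start site. Among 32851 promoters, 3.97% held this core at least once and 23 held it at 2 or more places. The Slc38a2 stretch, at chr15:96699729-96699878 on the minus strand, held the antioxidant core, as did 1 of the 2 promoters of Slc7a1, against 12.4% of all promoters. The Slc3a2 promoter held neither set of letters, and the Slc7a11 promoter held 0 antioxidant cores. Slc38a2, Slc7a1 and Slc3a2 held no C/EBP-ATF core in these windows, and at 10 µM Slc7a1 and Slc3a2 lay above both vehicle arrays. Bases outside the windows were not searched. These matches describe the letters of the windows and show no binding.

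The arrays had medians between 5.02 and 5.06. Of 11 microglia and macrophage markers, 10 were measured, and 8 of these had a mean at or above the overall median. Tmem119 and P2ry12, which mark microglia in the brain, lay below it on all 4 arrays. The median level of the 10 markers was 9.52 and 9.55 on the vehicle pair, 9.06 on the 10 µM array and 9.46 on the 20 µM array. Taken gene by gene, the median difference from the vehicle mean was -0.19 at 10 µM, where 9 of the 10 had a value below that mean, and -0.02 at 20 µM. Over all genes, 10556 of 22180 had a value below that mean at 10 µM. By limma's adjusted p 0 of the 10 markers were called at either dose. Of all genes, 0.509% were called higher and 1.08% lower at 10 µM, and 0% at 20 µM. By limma's unadjusted p under 0.05, 2 of the 10 markers differed at 10 µM, against 16.9% of all genes. The part of these marker differences in the results below was not tested. All 4 arrays came from the N9 line. In such bulk RNA, fewer cells with a marker and less of its RNA per cell cannot be told apart. Marker lists of astrocytes, neurons, oligodendrocytes, and endothelium and fibroblasts had median levels between 4.74 and 5.77 on every array. The 3 measured oligodendrocyte markers all had a mean at or above the overall median. The highest value in that list was 7.69 and 7.70 on the vehicle pair, 7.23 at 10 µM and 7.67 at 20 µM.

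At 10 µM, 3 of the 9 transporter genes rose and none fell by the test. The 3 were Slc1a4, Slc7a11 and Slc7a5, which were 2.75-fold, 2.37-fold and 2.10-fold higher than the vehicle mean. Slc7a1, Slc1a5 and Slc3a2 lay above both vehicle arrays and Slc38a2 and Slc7a3 below both, but these 5 did not pass. At 20 µM, 0 of the 9 passed, and their differences from the vehicle mean ran only from -0.25 to 0.16. The test was limma's moderated test on all 4 arrays in 3 groups, adjusted by Benjamini-Hochberg over 22180 genes and called under 0.05. Each dose had 1 array, so the fit assumes that a single array has the same spread as the vehicle pair (1 residual degree of freedom). limma's prior, drawn from all genes, added 4.88 degrees of freedom. Each SE below is therefore mostly that shared spread, not the gene's own vehicle spread. The dose and its single array cannot be told apart. Of all genes, 0.509% were called higher at 10 µM and 1.08% lower, and at 20 µM 0% were called either way.

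The median difference of the 9 genes was 0.47 at 10 µM and -0.08 at 20 µM, beside 0.01 and 0.00 over all genes. A difference of 1 or more, either way, was reached by 3 of 9 genes at 10 µM (1.57% of all genes), by 0 at 20 µM (0.0857%) and by 0 between the vehicle arrays (0.113%), where the largest gap was 0.26. The 10 µM array lay above both vehicle arrays for 6 of 9 genes, a position that 39.1% of all genes had, and below both for 2, as 35.4% of all genes did. The 20 µM array lay above both for 2 and below both for 5, against 34.5% and 35.1% of all genes. At an unadjusted p under 0.05, 8 of the 9 genes differed at 10 µM, against 16.9% of all genes, and 0 differed at 20 µM, against 6.39%. With dim probe sets left out 5 of the remaining 8 genes passed at 10 µM, 4 higher (3.13% of all genes in that fit) and Slc38a2 lower (6.91%). With a trend in limma's prior 6 of 9 passed, 5 higher (1.73% of all genes) and Slc38a2 lower (3.57%).

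**Figure D1:**
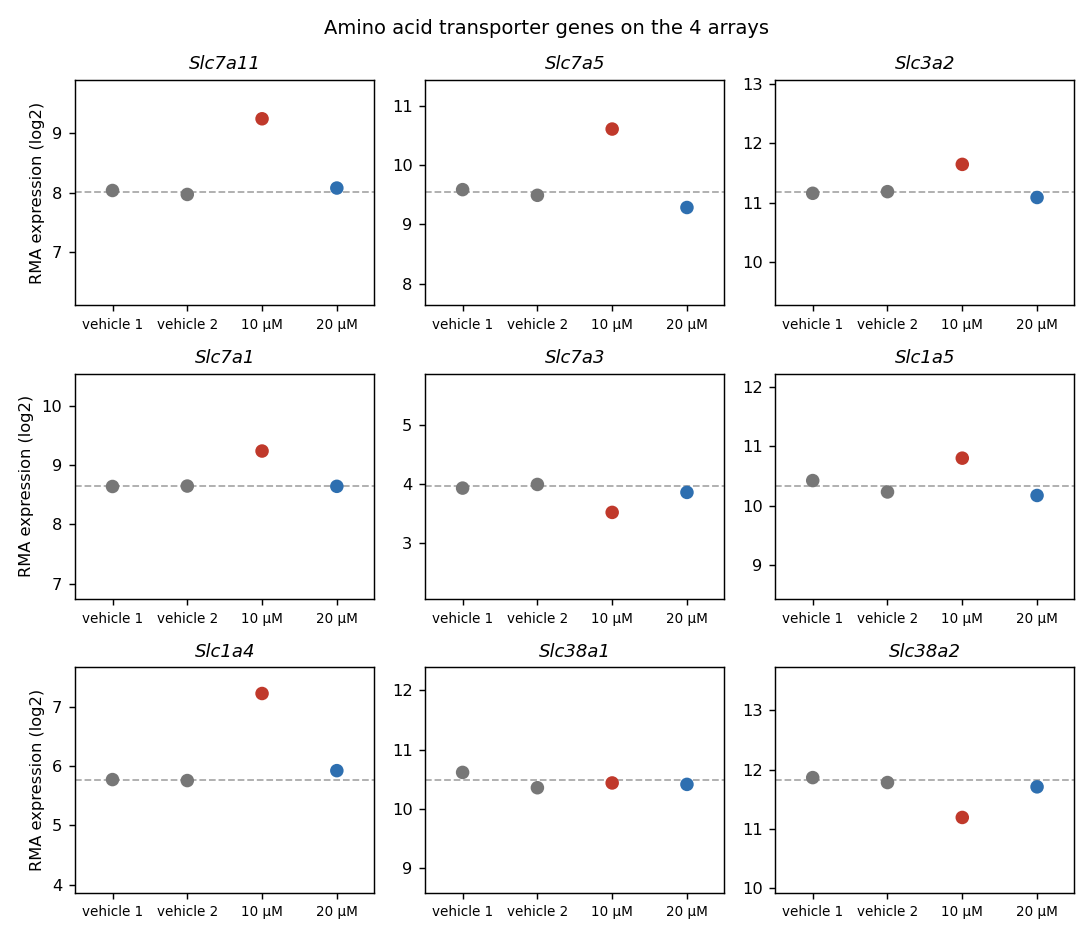
RMA expression (log2) of the 9 measured transporter genes on each of the 4 arrays, with the dashed line at the mean of the vehicle arrays. All panels span the same number of log2 units. The 10 µM point stands above both vehicle points for 6 genes and below both for Slc7a3 and Slc38a2, while the 20 µM points lie between -0.25 and 0.16 from the line.

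Slc7a11, the cystine and glutamate exchanger, had 8.04 and 7.97 on the vehicle pair, 9.25 on the 10 µM array and 8.08 on the 20 µM array. The 10 µM array was the high one, and the other 3 lay close together. The difference at 10 µM was 1.24 ± 0.15 (limma SE, here and below), with a limma adjusted p of 0.0277, and it ranked 69 of 22180 genes from the highest. At 20 µM it was 0.07, with a 95% interval from -0.28 to 0.43. A second probe set annotated to Slc7a11 had 3.43 and 3.50 on the vehicle pair, 3.72 on the 10 µM array and 3.18 on the 20 µM array, each below the overall median. Averaging both probe sets gave 0.75 at 10 µM and a limma adjusted p of 0.0707.

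Slc7a5, the light chain LAT1, had 9.58 and 9.49 on the vehicle pair, 10.60 on the 10 µM array and 9.28 on the 20 µM array. It was highest at 10 µM and lowest at 20 µM, where it lay below both vehicle arrays. The differences were 1.07 ± 0.15 (limma adjusted p = 0.0382) and -0.25 ± 0.15 (limma adjusted p = 0.784). Slc3a2, the shared heavy chain, had 11.16 and 11.19 on the vehicle pair, then 11.65 at 10 µM and 11.09 at 20 µM, so that it too was highest at 10 µM. Its difference there, 0.47 ± 0.14, had a limma adjusted p of 0.186. Slc3a2 was called higher at 10 µM in 1 of 5 alternative fits, with a trend in limma's prior (limma adjusted p = 0.0340).

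Of the 6 light chain genes that pair with Slc3a2, the 2 that passed at 10 µM were Slc7a11 and Slc7a5, both higher, as were 0.509% of all genes. The other 4 did not pass. Slc7a6, which exchanges cationic for neutral amino acids, had 9.72 and 9.65 on the vehicle pair, 9.62 on the 10 µM array and 9.67 on the 20 µM array. Slc7a8, the neutral amino acid carrier LAT2, had 11.42 and 11.33 on the vehicle pair, then 11.16 at 10 µM and 11.28 at 20 µM. Their differences at 10 µM were -0.06 and -0.21. Slc7a7, a further cationic and neutral exchanger, was under the vehicle pair at 10 µM and again at 20 µM, with differences of -0.38 and -0.34 (limma adjusted p = 0.333 and 0.762), while vehicle 2 minus vehicle 1 was -0.25. The promoters of Slc7a7 also held the C/EBP-ATF core, 1 of them at 2 places, as the Slc7a11 promoter did. Slc7a7 was the only 1 of 34 other transporter genes with a promoter entry to hold it, beside 3.97% of all promoters. Slc7a10, which carries small neutral amino acids, differed by 0.28 at each dose.

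Slc1a4 encodes ASCT1, an exchanger of alanine, serine and cysteine. It had 5.77 and 5.75 on the vehicle pair, 7.22 on the 10 µM array and 5.92 on the 20 µM array. It had the largest difference of the 9 genes at 10 µM, 1.46 ± 0.14 (limma adjusted p = 0.0204), which ranked 43 of 22180 genes. At 20 µM it was 0.16, with an interval from -0.19 to 0.51. Slc1a5, the related glutamine exchanger ASCT2, had 10.42 and 10.23 on the vehicle pair, then 10.80 at 10 µM and 10.17 at 20 µM. Its 10 µM array was the highest, but the difference of 0.47 ± 0.16 did not pass (limma adjusted p = 0.222). A second, dimmer Slc1a5 probe set gave 0.54 at 10 µM and -0.01 at 20 µM.

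Of the cationic carriers for arginine and lysine, Slc7a1 (CAT1) had 8.64 and 8.65 on the vehicle pair, 9.24 on the 10 µM array and 8.64 on the 20 µM array. The vehicle and 20 µM arrays were within 0.01 of each other, and the 10 µM array lay 0.59 ± 0.14 above the vehicle mean (limma adjusted p = 0.126). Slc7a3 (CAT3) lay between 3.52 and 3.99 on the 4 arrays, under the overall median throughout, and its fold is left out.

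Slc38a2 and Slc38a1, which encode sodium-coupled carriers of small neutral amino acids, were not called at either dose in the fit as reported. Slc38a2, or SNAT2, had 11.87 and 11.78 on the vehicle pair, 11.19 on the 10 µM array and 11.71 on the 20 µM array. Its 10 µM value was the lowest, and the difference of -0.63 ± 0.15 had a limma adjusted p of 0.116. It was called lower in 2 of 5 alternative fits, with a limma adjusted p of 0.0343 with dim probe sets left out and 0.0128 with a trend. Slc38a1, or SNAT1, had 10.62 and 10.36 on the vehicle pair, then 10.44 at 10 µM and 10.41 at 20 µM, so that both doses lay between the vehicle arrays. Its difference at 10 µM was -0.05, with a 95% interval from -0.47 to 0.37.

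**Figure D2:**
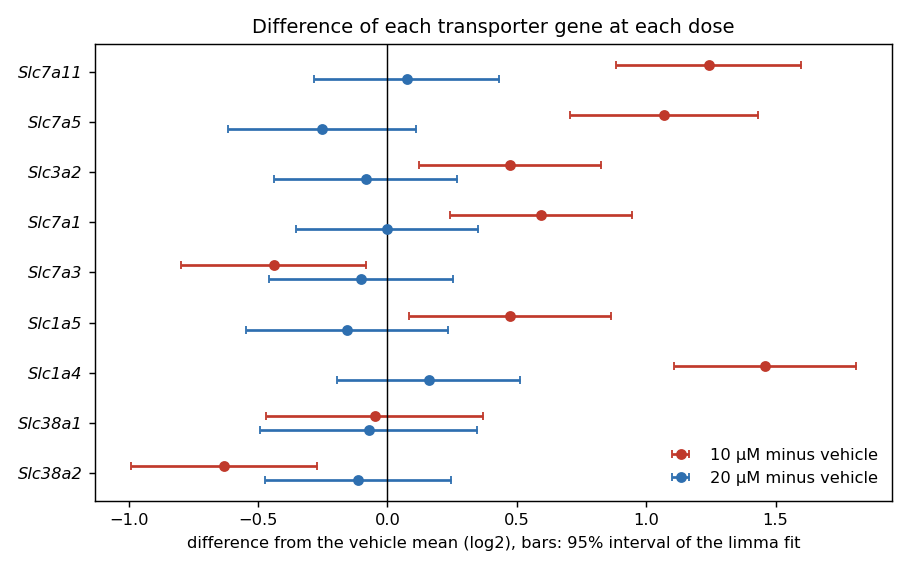
Difference of each of the 9 genes from the vehicle mean (log2), at 10 µM and at 20 µM, with unadjusted 95% intervals from the limma fit of 3 groups. At 10 µM the intervals of Slc1a4, Slc7a11 and Slc7a5 begin at 0.71 or higher, and at 20 µM every interval includes 0.

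Between the doses, the 20 µM array lay nearer to the vehicle mean than the 10 µM array for 8 of 9 genes, Slc38a1 being the other, beside 58.1% of all genes. The difference of 20 µM minus 10 µM was -1.17 ± 0.17 for Slc7a11, -1.32 ± 0.17 for Slc7a5 and -1.30 ± 0.17 for Slc1a4. Their limma adjusted p-values were 0.0675, 0.0561 and 0.0561, so 0 of 9 genes passed, against 0.316% of all genes. At an unadjusted p under 0.05, 7 of 9 differed between the doses, against 13.7% of all genes. These 3 did pass, lower at 20 µM, when dim probe sets were left out (2.44% of all genes in that fit), when array medians were set equal (0.748%), with cyclic loess (0.478%) and with a trend in the prior (1.42%). With both doses taken as 1 group of 2 arrays against the 2 vehicle arrays, limma called 0 of the 9 genes (0% of all genes), and 0 had an unadjusted p under 0.05, against 5.37% of all genes. Slc1a4 had the largest difference there, 0.81 ± 0.39 (limma adjusted p = 0.792).

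A chosen list of 44 other amino acid transporter genes, from these and further families, was read beside them. At 10 µM, 1 rose (0.509% of all genes), 1 fell (1.08%) and 42 did not pass. At 20 µM 0 passed (0% of all genes). At an unadjusted p under 0.05, 3 of the 44 differed at 10 µM, against 16.9% of all genes, and 2 at 20 µM, against 6.39%. Their median difference was 0.03 at 10 µM and 0.08 at 20 µM. A mean below the overall median was found for 20 of the 44, against 1 of the 9 genes. Slc38a7, which carries glutamine and asparagine out of lysosomes, had 8.12 and 8.01 on the vehicle pair, 9.32 on the 10 µM array and 8.13 on the 20 µM array. It was 2.39-fold higher at 10 µM (limma adjusted p = 0.0280). Slc43a2, a facilitator of large neutral amino acids known as LAT4, had 9.17 and 9.06 on the vehicle pair, then 8.17 at 10 µM and 9.28 at 20 µM. It was lowest at 10 µM, and the difference of -0.95 ± 0.15 lay just inside the threshold (limma adjusted p = 0.04998).

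Slc36a2, a proton-coupled carrier of small neutral amino acids, lay below both vehicle arrays at both doses. It had 5.96 and 5.95 on the vehicle pair, 5.16 on the 10 µM array and 5.29 on the 20 µM array, with differences of -0.80 ± 0.14 and -0.66 ± 0.14 (limma adjusted p = 0.0671 and 0.762). Of all genes, 18.2% had both doses below both vehicle arrays. At 10 µM Slc36a2 passed with dim probe sets left out, with equal array medians, with loess and with a trend. Slc38a6 and Slc7a14 differed by -0.30 and -0.32 at 10 µM and by 0.21 and 0.40 at 20 µM. For Slc38a6 vehicle 2 lay 0.62 above vehicle 1.

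**Figure D3:**
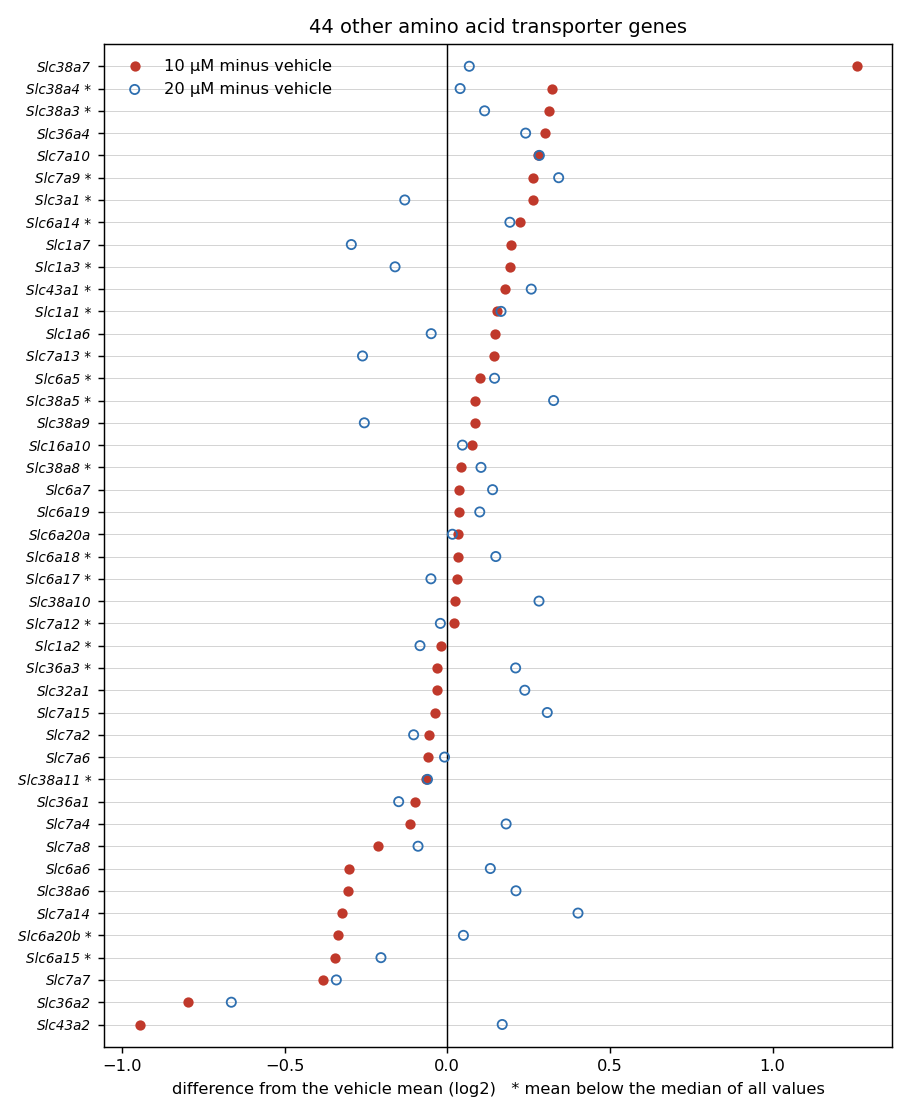
Difference from the vehicle mean (log2) of the 44 other amino acid transporter genes at 10 µM (filled) and 20 µM (open), ordered by the 10 µM difference. Slc38a7 stands alone on the high side at 1.26, and Slc43a2 and Slc36a2 lie lowest at -0.95 and -0.80.

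Genes of the ATF4 stress response, with Nfe2l2, were read on the same arrays. Of 7 genes, the 4 that rose at 10 µM were Atf4, Ddit3, Asns and Chac1, beside 0.509% of all genes. At 20 µM 0 of 7 passed (0% of all genes), and 1 had an unadjusted p under 0.05, against 6.39% of all genes. Atf4 had 8.86 and 8.84 on the vehicle pair, 10.33 on the 10 µM array and 8.87 on the 20 µM array, a difference of 1.48 ± 0.14 at 10 µM (limma adjusted p = 0.0197). Asns, the asparagine synthetase, and Chac1, which breaks down glutathione, were 2.85-fold and 2.02-fold higher there (limma adjusted p = 0.0185 and 0.0470). Ddit3, which encodes CHOP, differed by 3.36 (limma adjusted p = 0.00286). Cebpb, an ATF4 partner, and Atf3 differed by 0.50 and 0.21 at 10 µM and did not pass. Nfe2l2, which encodes NRF2, had 9.72 and 9.83 on the vehicle pair, 9.67 on the 10 µM array and 9.87 on the 20 µM array.

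**Figure D4:**
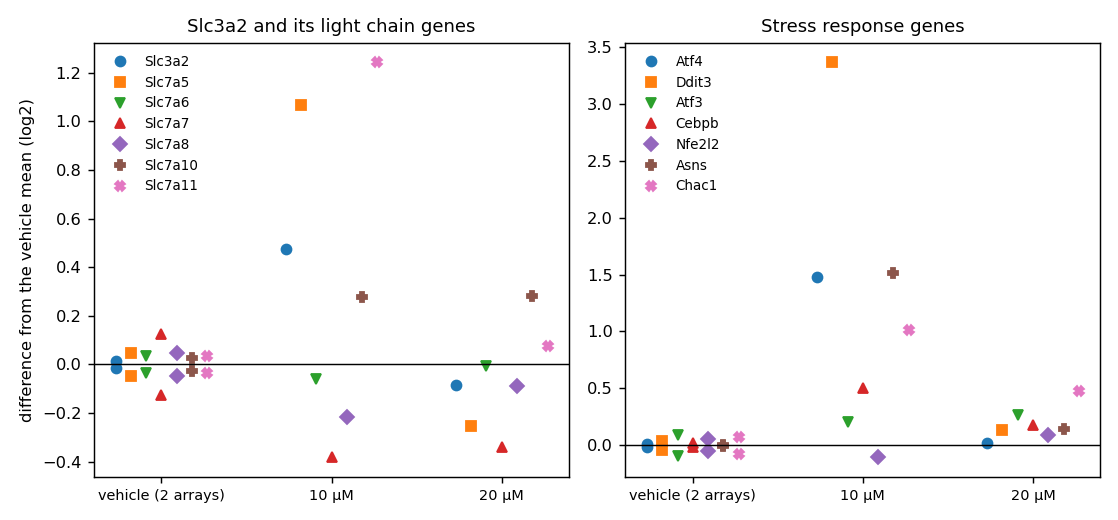
Difference from the vehicle mean (log2) of Slc3a2 and its 6 light chain genes (left) and of 7 stress response genes (right), by dose, with both vehicle arrays at the left of each panel. The y axes differ. Slc7a11 and Slc7a5 stand apart from the other light chains at 10 µM, and Ddit3 stands highest among the stress genes at 3.36.

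The genes whose 4 values, centred on the vehicle mean, lay nearest to those of Slc7a11 by Euclidean distance were Slc38a7, Erlin1, Psph, Ascc2 and Cd40, at distances from 0.04 to 0.09 on the log2 scale. Only genes with a mean at or above the overall median were compared. Psph, the last enzyme of serine synthesis, had 7.02 and 6.92 on the vehicle pair, 8.21 on the 10 µM array and 6.99 on the 20 µM array. With 4 arrays, this likeness rests mostly on the size of the difference at 10 µM.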

How the data were processed

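The authors deposited log2 expression values per probe set, and the submitters' processing notes name RMA and Affymetrix Expression Console, version 1.2.1.20, for them. RMA includes quantile normalization, which removes any change common to most genes. The table held 41345 probe sets, of which 23521 had exactly 1 gene symbol in the array annotation. The probe set with the highest mean was kept for each of 22180 genes. limma 3.58.1 (R 4.3.3, lmFit and eBayes) was run on all genes, in 3 groups for the contrasts of single doses and in 2 groups for nimodipine against vehicle. The scripts were tested on simulated data. No label ties the arrays to separate cultures, so the spread behind each p may be technical, and 4 arrays give limited precision. The transporter genes, the other lists and the tests were chosen with earlier results of these data known. Genes named beyond the members were all light chains of Slc3a2, all 7 stress genes, those of the 44 other transporters that were called or among the 6 with the largest 10 µM difference (with a mean no lower than the overall median), and the 5 nearest profiles, passing over predicted genes, clone names and small RNAs. The fits were repeated without dim probe sets, with probe sets averaged per gene, with equal array medians, after cyclic loess, with an eBayes trend and with arrays left out. Promoters are from RefSeq.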

Additional observations from a re-analysis of the deposited data

How the results depend on the processing

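The count of transporter genes called at 10 µM was 3 of 9 as reported. It was 5 of 8 with dim probe sets left out, which tests fewer genes and drops Slc7a3, and 6 of 9 with a trend in eBayes. Slc38a2, called lower, was 1 of them in both. Slc1a4 and Slc7a5 were called at 10 µM under each of the 5 alternatives of the fit, and Slc7a11 under 4 of them. The exception was averaging the probe sets of a gene, where a dim second probe set enters the average and the count was 2. For 20 µM against 10 µM the count of 0 became 3 with dim probe sets left out, 3 with equal array medians, 3 with cyclic loess and 4 with the trend. The cause was not tested. With nimodipine as 1 group, leaving out an array leaves 1 array on that side, so no count is drawn from those fits. Without the 20 µM array, such a fit compares the 10 µM array with the vehicle pair again. At 20 µM the count was 0 under each alternative run. The 3 genes past a difference of 1 at 10 µM were past it against either vehicle array alone. Without a vehicle array the fit of 3 groups has no residual degree of freedom and gives no test. No named gene reversed direction once called. No paired analysis was possible because the labels leave unsaid which vehicle array goes with which dose. Whether the vehicle arrays are replicates of 1 condition is for the same reason not certain. Deposited values carry no detection call, and differences near background may be understated.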
